A study of Mus musculus with 10 samples.

Results

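The p53 pathway was followed through 32 mouse genes in RNA sequencing of cultured tongue epithelial cells. The genes are Trp53, which encodes p53, 4 of its negative regulators, and 27 further genes known as p53 targets in apoptosis, growth arrest, DNA repair and metabolism. They were chosen by name, with earlier results of these data known, and all 32 were found among the 18586 genes of the table. A gene was tested if its level, in TPM (transcripts scaled to the same library total), reached 1 in at least 4 libraries, which 31 of the 32 genes and 11630 genes in all did. The gene that did not is Gdf15, a secreted stress factor of the TGF-beta family.

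The libraries came from 2 genotypes. Krt14-CreERT, LSL-rtTA and tetON_H2B-GFP were shared by all cells, and N cells carried nothing further. EY cells had in addition the transgenes tetON_E6-E7 and tetON_YAP1S127A, so that doxycycline switched on the E6 and E7 oncogenes of human papillomavirus and a constitutively active YAP1. In both genotypes the keratin 14 promoter drives a tamoxifen-dependent Cre recombinase that releases rtTA, so the transgenes start in basal epithelial cells. Mice were induced with tamoxifen injected into the tongue and doxycycline chow. Cells were taken 15 days after induction, sorted on GFP and grown with doxycycline. The 6 EY libraries came from 3 lines (EY3960, EY4028 and EY4174), with 2 samples of each. All 4 N libraries came from a single line, N4172, so genotype and line cannot be told apart. The labels do not say whether samples of 1 line are separate cultures, so SDs and p-values measure only the spread between these libraries, which may be technical.

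p53 is a transcription factor that cells hold at low levels until DNA damage, oncogene activity or other stress stabilizes the protein. MDM2 and MDM4 keep it in check, and because Mdm2 is itself a p53 target, the pathway contains a negative feedback loop. E6 recruits the cellular ubiquitin ligase E6AP, encoded by Ube3a, to degrade p53 protein, while E7 acts on the retinoblastoma protein. RNA levels do not measure p53 protein, and many target genes are also transcribed through other factors.

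The libraries were alike in the number of genes detected. They held 10852 to 11522 genes at 1 TPM or more, and mitochondrial transcripts took 14.1 to 20.5% of the TPM. Yap1 lay at 34.7 to 57.1 TPM in EY and 17.2 to 20.9 TPM in N libraries. This is the mouse gene, while the study's transgene primers are named for human YAP1. Whether transgene reads were counted for Yap1 is not given, and E6 and E7 levels were not examined here. Of 12 markers of tongue epithelium, 11 were at or above 1 TPM in every library, Krt4 being the exception, and their summed level was 6275 to 8977 TPM in EY and 7196 to 7902 TPM in N samples 1 to 3, with 7644 TPM in N sample 4. The sum hides wide ranges of single markers, with Krt15 at 8.70 to 97.9 TPM and Krt13 at 3.55 to 88.6 TPM over the libraries. The listed fibroblast, endothelial, muscle and melanocyte markers summed to no more than 3.24 TPM in any library. Of the immune markers, Ptprc and Csf1r reached at most 0.35 and 0.06 TPM and Cd68 carried the sum of 29.4 to 71.9 TPM in EY, 42.2 to 47.6 TPM in N samples 1 to 3 and 68.9 TPM in N sample 4.

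p53 binds a 20-letter DNA element made of a pair of 10-letter motifs, each with a core that reads CNNG. RefSeq promoters, running from 250 bases before to 50 bases after a gene start in GRCm38.p6, were matched for 25 of the 32 genes. Pmaip1, Tnfrsf10b, Trp53inp1, Zmat3, Ddb2, Xpc and Rrm2b had no entry. With the C and G of each core held fixed, up to 3 mismatches at other letters and no spacer, the p53 response element was found in 7 of the 25 promoters (28%), those of Trp53, Ccng1, Bbc3, Aen, Rps27l, Sesn1 and Tigar, and in 441 of 27025 genes with a promoter (1.63%). The element reads the same way on both strands, so either strand gives the same matches. With a spacer of up to 3 bases and at most 2 mismatches, a setting chosen after the data were seen, it was found in 5 of 25 (20%) against 418 of all genes (1.55%). They were Ccng1, Bax, Pml, Rps27l and Sesn1, while Trp53, Bbc3, Aen and Tigar had no match at this setting. Of the elements found at the first setting, 4 are shown in capitals with 5 flanking bases on each side. Aen and Sesn1 were taken because they moved in opposite directions in EY cells. Ccng1 and Rps27l carry the closest matches, with 1 mismatch each.
Aen: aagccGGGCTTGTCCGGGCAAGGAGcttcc
Sesn1: ccttcAAGCTTGTTTTTGCTGGCCTggtcc
Ccng1: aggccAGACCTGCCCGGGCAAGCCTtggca
Rps27l: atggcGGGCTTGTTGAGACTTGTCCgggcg
They lie at chr7:78895932-78895961 on the plus strand, chr10:41887261-41887290 on the plus strand, chr11:40755457-40755486 on the minus strand and chr9:66946291-66946320 on the plus strand. The Aen and Sesn1 elements have 3 mismatches each. A match is a description of these letters only and shows no binding in these cells. Most of the 25 genes were listed as known p53 targets, so their higher share of matches is not a test. Positions outside the window were not searched, so a gene without a match may still carry an element.

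EY and N cells differed in few of the 31 genes. A gene was called when limma gave an adjusted p below 0.01, with Benjamini-Hochberg adjustment over all 11630 genes, and a log2 fold change beyond 1 in either direction on the log2(TPM + 1) scale, which understates changes of genes with low values. Aen and Plk3 rose (2 of 31 genes, 6.45%, against 1.85% of all genes tested), and Trp53inp1 and Sesn1 fell (2 of 31, 6.45%, against 1.7%). The shares lie above the background, but each rests on 2 genes, and the 31 genes were chosen with earlier results of these data known. Without the fold threshold the same 4 genes passed, which is 12.9% against 11.8% of all genes, a share near the background. An adjusted p below 0.05 was reached by 7 genes (22.6%, against 24.5% of all genes). The median log2 fold change was -0.04 over the 31 genes and 0.03 over all genes, with 15 genes higher and 16 lower in EY, and 26 of the 31 changed by less than 0.5. With line as a random block in the model only Aen was called, and with 1 mean per line limma called none (Aen adjusted p = 0.0959, 4 genes at an unadjusted p below 0.05), where N is a single value and only the 3 EY lines give the spread. The plot of each gene in each library shows these changes beside the spread between libraries.

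**Figure D1:**
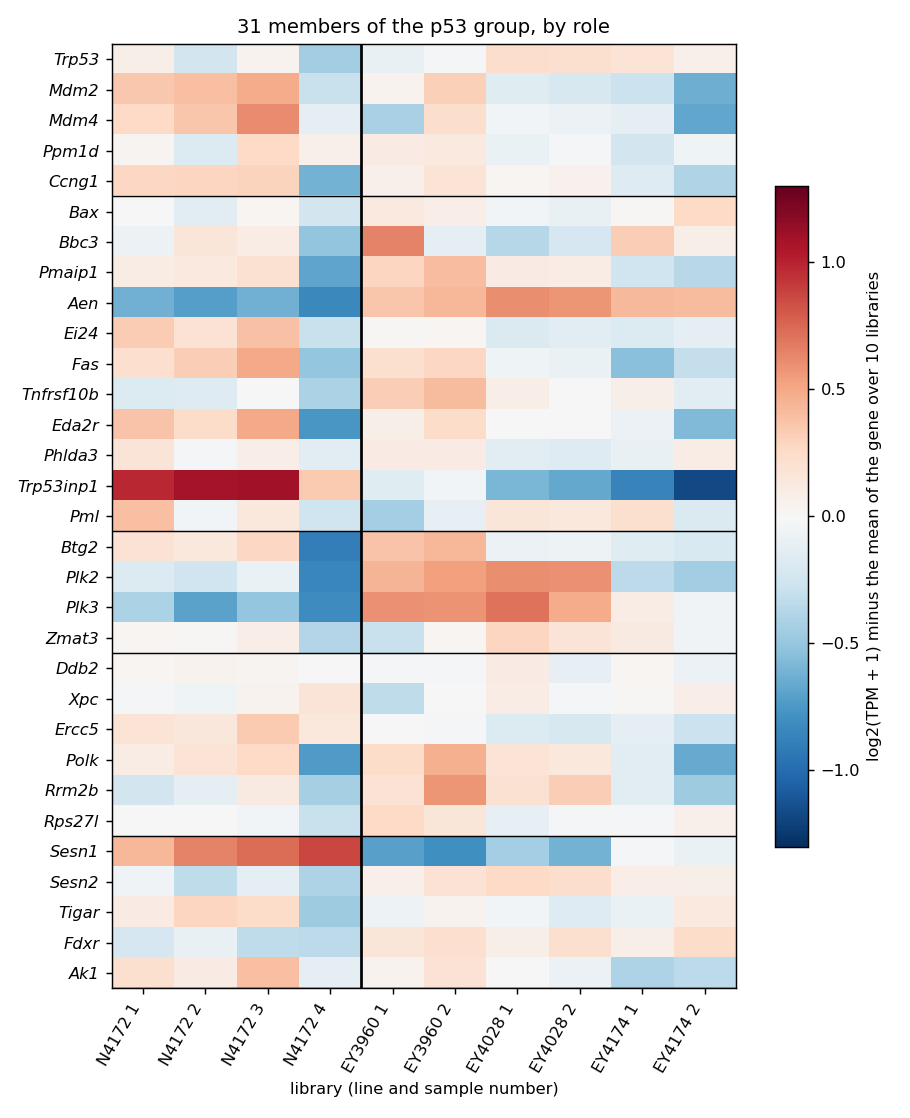
Heat map of the 31 tested genes (rows, grouped by role) in the 10 libraries (columns, N4172 on the left of the vertical line, the EY lines on the right). Colour gives log2(TPM + 1) minus the mean of that gene over the 10 libraries, from blue (lower) to red (higher); Aen, Plk3, Trp53inp1 and Sesn1 separate the genotypes, and N4172 sample 4 is the lowest N library in 28 rows.

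Trp53 RNA was present at similar levels in both genotypes. N samples 1 to 4 had 78.0, 62.4, 76.3 and 54.0 TPM. EY3960 had 69.3 and 73.0 TPM, EY4028 had 86.8 and 85.7 TPM, and EY4174 had 84.0 and 77.8 TPM. The groups overlapped, since N samples 1 and 3 lay above both EY3960 libraries. Over the 6 EY libraries Trp53 averaged 79.4 ± 7.23 TPM (SD), and over the 4 N libraries 67.7 ± 11.5 TPM (SD). Its log2 fold change, 0.24 ± 0.11 (SE), did not pass the test (limma adjusted p = 0.139), and it was 0.14 without N sample 4. Trp53 overlaps Wrap53 on the opposite strand, and whether the quantification separated strands is not given in the sources used here.

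Mdm2, the ubiquitin ligase for p53, had 115, 117 and 125 TPM in N samples 1 to 3 and 73.0 TPM in N sample 4. In EY it had 92.2 and 111 TPM in EY3960, 80.1 and 77.2 TPM in EY4028, and 73.4 and 57.4 TPM in EY4174. All 6 EY libraries were below N samples 1 to 3, but N sample 4 lay within the EY range. The log2 fold change was -0.39 ± 0.19 (SE; limma adjusted p = 0.152), and -0.56 without N sample 4 (limma adjusted p = 0.0310). By line the log2 difference from all N libraries was -0.06 in EY3960, -0.42 in EY4028 and -0.69 in EY4174 (limma adjusted p = 0.863, 0.148 and 0.0281). Against N samples 1 to 3 it was -0.23, -0.59 and -0.86 (limma adjusted p = 0.112, 0.00152 and 0.000152). Leaving out the lowest N library lowers these values by construction and narrows the N spread. The SD of log2(TPM + 1) over N fell from 0.35 to 0.07. P-values without N sample 4, here and below, are therefore descriptions and not tests of genotype. The test between the lines did not pass (limma F test, adjusted p = 0.166).

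Mdm4, the MDM2 relative that masks the activation domain of p53, had 40.2, 43.3, 51.8 and 30.6 TPM in N samples 1 to 4. It had 24.7 and 39.4 TPM in EY3960, 32.6 and 31.7 TPM in EY4028, and 30.9 and 20.6 TPM in EY4174. As with Mdm2, only N sample 4 overlapped the EY range. Its log2 fold change was -0.46 ± 0.18 (SE; limma adjusted p = 0.0812), and -0.59 without N sample 4 (limma adjusted p = 0.0326). Ppm1d, the phosphatase that removes activating phosphates from p53, lay between 4.49 and 6.77 TPM in all libraries. Ccng1, a cyclin G gene induced by p53, had 581 to 592 TPM in N samples 1 to 3 and 314 TPM in N sample 4, and 369 to 546 TPM in EY, a log2 fold change of -0.09, or -0.32 without N sample 4. None of the 5 genes for p53 and its negative regulators was called, and their median log2 fold change was -0.09, or -0.32 without N sample 4.

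**Figure D2:**
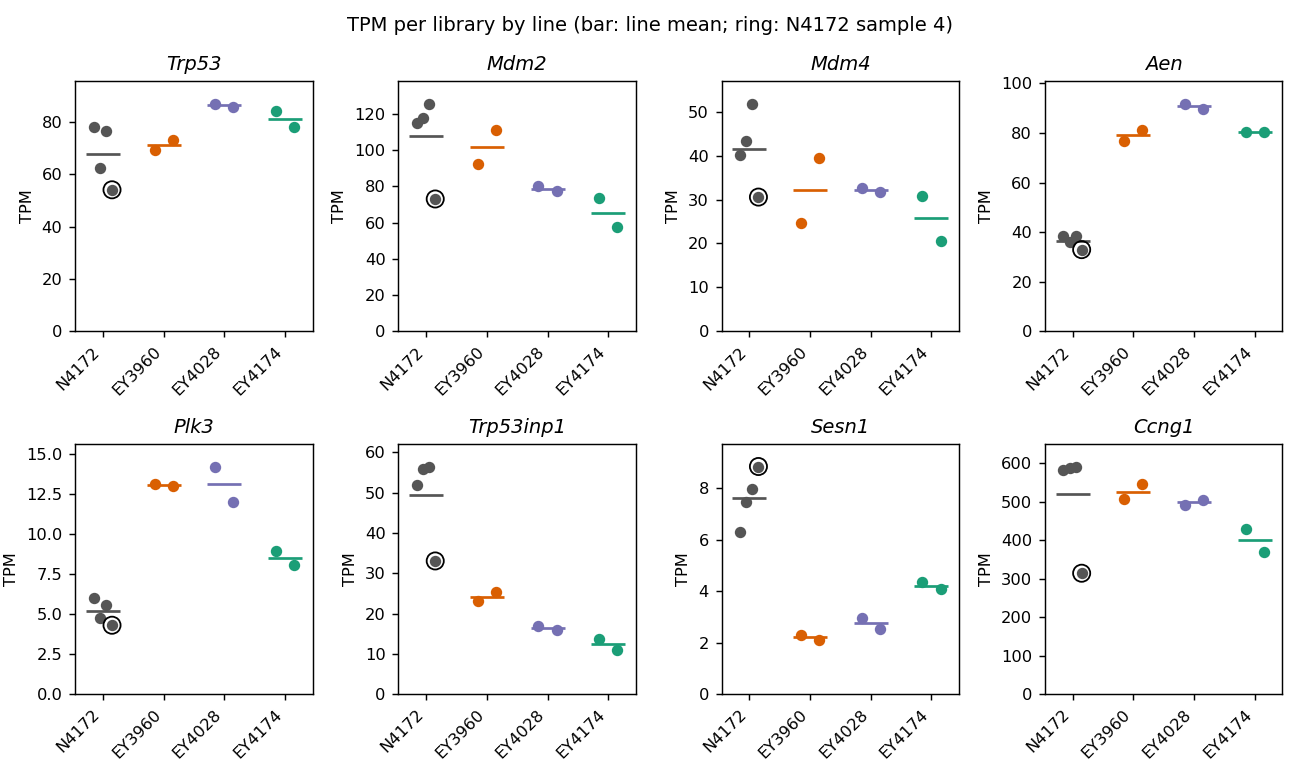
TPM per library (points) for Trp53, Mdm2, Mdm4, Aen, Plk3, Trp53inp1, Sesn1 and Ccng1 in the 4 lines, on linear axes that start at 0. The horizontal bar is the mean of the line and the ring marks N4172 sample 4, which lies below the other N libraries in all these genes but Sesn1.

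Of the 11 apoptosis genes, 1 rose and 1 fell. Aen encodes the apoptosis-enhancing nuclease, which digests DNA and RNA in cells with activated p53. Aen had 38.6, 36.2, 38.6 and 33.0 TPM in N samples 1 to 4. It had 77.0 and 81.1 TPM in EY3960, 91.8 and 89.7 TPM in EY4028, and 80.6 and 80.3 TPM in EY4174. Every EY library lay above every N library, with means of 83.4 ± 5.90 TPM (SD, n = 6) and 36.6 ± 2.64 TPM (SD, n = 4). The log2 fold change was 1.17 ± 0.08 (SE; limma adjusted p = 1.66e-06), and Aen was called in each line, at 1.09 in EY3960, 1.29 in EY4028 and 1.12 in EY4174.

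Trp53inp1 encodes a stress-induced partner of p53 that acts in apoptosis and autophagy. Trp53inp1 had 52.0, 55.9, 56.5 and 33.0 TPM in N samples 1 to 4. It had 23.1 and 25.3 TPM in EY3960, 16.8 and 16.0 TPM in EY4028, and 13.8 and 10.9 TPM in EY4174. No EY library reached the lowest N library. Trp53inp1 averaged 17.7 ± 5.51 TPM (SD) over the 6 EY and 49.3 ± 11.1 TPM (SD) over the 4 N libraries. The fall was -1.45 ± 0.23 on the log2 scale (SE; limma adjusted p = 0.00110). It was -0.97 in EY3960, just short of the fold threshold, -1.50 in EY4028 and -1.89 in EY4174, and without N sample 4 it was -1.15 in EY3960 and passed.

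The other 9 apoptosis genes were not called. Bax, which forms pores in the mitochondrial outer membrane, lay between 160 and 225 TPM in all libraries, and its log2 fold change was 0.15 ± 0.08 (SE; limma adjusted p = 0.221). Bbc3 and Pmaip1, which encode the BH3-only proteins PUMA and NOXA, had log2 fold changes of 0.14 and 0.11, and both were negative without N sample 4 (-0.00182 and -0.10). The death receptor genes went in both directions without passing the test: Tnfrsf10b, a receptor for TRAIL, had 0.32, Fas had -0.22, and Eda2r, a receptor for ectodysplasin A2, had -0.14. Without N sample 4 these were 0.25, -0.43 and -0.42. Ei24, an endoplasmic reticulum membrane protein, had -0.25 (limma adjusted p = 0.143), and -0.40 without N sample 4 (limma adjusted p = 0.00338). Phlda3, an inhibitor of AKT, and Pml, the scaffold of nuclear bodies, had -0.04 and -0.10, or -0.10 and -0.20 without N sample 4.

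Of the 4 tested genes for growth arrest and stress kinases, 1 rose and none fell. Plk3 encodes a polo-like kinase of the stress response. Plk3 had 6.04, 4.77, 5.60 and 4.31 TPM in N samples 1 to 4. It had 13.1 and 13.0 TPM in EY3960, 14.2 and 12.04 TPM in EY4028, and 8.98 and 8.08 TPM in EY4174. All 6 EY libraries were above the 4 N libraries, with means of 11.6 ± 2.47 TPM (SD, n = 6) and 5.18 ± 0.78 TPM (SD, n = 4). On the log2 scale the rise was 1.01 ± 0.16 (SE; limma adjusted p = 0.000973), which lies at the fold threshold, and without N sample 4 it was 0.94 (limma adjusted p = 0.00343). It also fell short of the threshold, at 0.95 to 0.99, when EY3960 sample 1 or 2, EY4028 sample 1 or 2, or N sample 2 was left out, and at 0.98 under 3 other scalings of the libraries. By line the rise was 1.19 in EY3960, 1.20 in EY4028 and 0.63 in EY4174.

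Plk2, a related polo-like kinase, had the lowest p of the 31 genes between the EY lines. It had 220 and 234 TPM in EY3960, 245 and 244 TPM in EY4028, but 127 and 118 TPM in EY4174, against 143, 135, 152 and 89.3 TPM in N samples 1 to 4. EY3960 and EY4028 lay above all N libraries, and EY4174 lay below N samples 1 to 3 and above N sample 4. The log2 differences from N were 0.83, 0.94 and -0.06, and without N sample 4 they were 0.66, 0.77 and -0.23 (for EY4174, limma adjusted p = 0.840 and 0.0209). The test between the 3 lines gave an adjusted p of 0.0128 (limma F test). The antiproliferative gene Btg2 and Zmat3, a zinc finger regulator of splicing, had log2 fold changes of 0.13 and 0.10, and both were negative without N sample 4 (-0.15 and -0.000708). Gdf15, below the filter and not tested, had 0.04, 0.04, 0 and 0 TPM in N samples 1 to 4. It had 0 and 0.09 TPM in EY3960, 0.69 and 0.61 TPM in EY4028, and 0.46 and 0.72 TPM in EY4174. EY4028 and EY4174 thus lay above all N libraries, at values under 1 TPM.

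No gene of the 6 for DNA repair and nucleotide supply was called. Ercc5, which encodes the XPG endonuclease of nucleotide excision repair, had 24.6 to 30.2 TPM in EY and 33.0 to 38.4 TPM in N, so the groups did not overlap. Its log2 fold change was -0.33 ± 0.08 (SE; limma adjusted p = 0.0120), outside the threshold. The damage sensors Ddb2 and Xpc had -0.04 and -0.06, and Polk, a translesion polymerase, had 0.09, or -0.14 without N sample 4. Rrm2b, the p53-inducible subunit of ribonucleotide reductase, had 0.28, and Rps27l, a ribosomal protein gene with the close paralog Rps27 whose reads it may share, had 0.14, or 0.07 without N sample 4.

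Of the 5 genes for metabolism and redox, 1 fell. Sesn1 and Sesn2 encode sestrins, which restrain mTORC1 signalling under stress. Sesn1 had 6.30, 7.45, 7.95 and 8.85 TPM in N samples 1 to 4. It had 2.31 and 2.11 TPM in EY3960, 2.97 and 2.53 TPM in EY4028, and 4.35 and 4.09 TPM in EY4174. Every EY library lay below every N library, with means of 3.06 ± 0.95 TPM (SD, n = 6) and 7.64 ± 1.06 TPM (SD, n = 4). The log2 fold change was -1.11 ± 0.17 (SE; limma adjusted p = 0.000843), with -1.42 in EY3960, -1.20 in EY4028 and -0.72 in EY4174. Without EY3960 it was -0.96.

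Sesn2 had the opposite sign. It lay at 5.70 to 6.63 TPM in EY and 3.84 to 5.20 TPM in N, without overlap, and differed by 0.37 ± 0.10 (log2, SE; limma adjusted p = 0.0231). Fdxr, a mitochondrial ferredoxin reductase, had 2.32 to 2.71 TPM in EY and 1.49 to 1.94 TPM in N, again without overlap, at 0.41 ± 0.11 (SE; limma adjusted p = 0.0156). Neither passed the threshold. Tigar, a fructose bisphosphatase that slows glycolysis, had -0.07, or -0.24 without N sample 4, and the adenylate kinase gene Ak1 had -0.24 (limma adjusted p = 0.753 and 0.211).

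Counted by overlap alone, 4 genes (Aen, Plk3, Sesn2 and Fdxr) were higher in every EY than in every N library, 12.9% against 11.3% of all genes, and 3 (Trp53inp1, Ercc5 and Sesn1) were lower in every EY library, 9.68% against 9.1%. These shares were near the background.

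The 3 EY lines were each compared with the same N libraries. EY3960 against N gave 3 called genes (Aen, Plk3 and Sesn1, against 7.04% of all genes called), EY4028 gave 4 (Aen, Plk3, Trp53inp1 and Sesn1, against 5.74%), and EY4174 gave 2 (Aen and Trp53inp1, against 4.95%). The median was 0.08 in EY3960, -0.00058 in EY4028 and -0.06 in EY4174, beside 0.01, 0.09 and -0.01 over all genes. EY3960 had the highest line mean in 18 of the 31 genes (58.1%), against 32.6% of all genes, and EY4174 the lowest in 18 (58.1%), against 45.8%.

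Tested between the lines, no gene was called, against 5.12% of all genes. In that limma F test 7 of the 31 genes had an unadjusted p below 0.05 (22.6%, against 34.8% of all genes) and 4 an adjusted p below 0.05 (12.9%, against 19.1%). The 4 were Plk2, Sesn1, Plk3 and Trp53inp1 (adjusted p = 0.0128, 0.0285, 0.0386 and 0.0410), named after their values were seen. Trp53inp1 was lower in EY4174 than in EY3960 (EY4174 minus EY3960 -0.92), as was Plk3 (-0.56), and Sesn1 was higher (0.70), all on the log2(TPM + 1) scale.

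**Figure D3:**
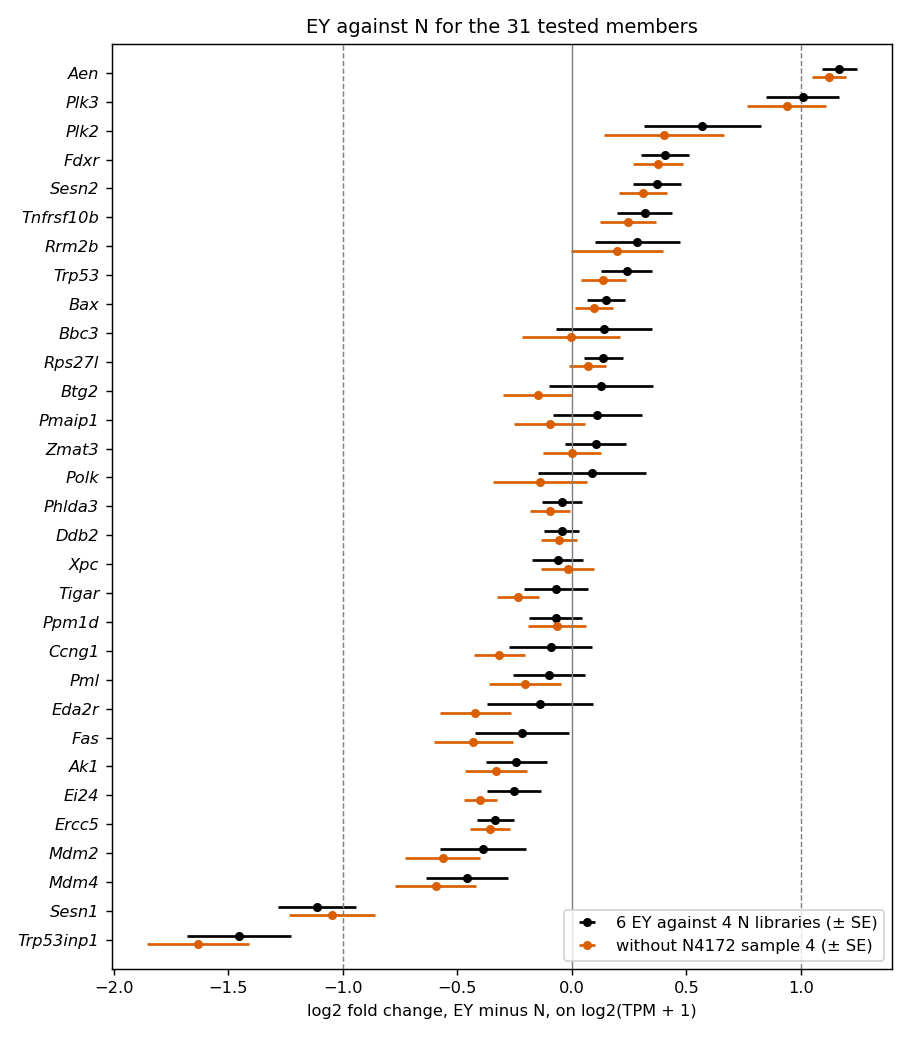
Log2 fold change of EY against N on the log2(TPM + 1) scale for the 31 tested genes, with all 4 N libraries (black) and without N4172 sample 4 (orange). Points are limma estimates, bars are ± SE and the dashed lines mark the fold threshold of 1; most estimates move left without N4172 sample 4, and Aen, Plk3, Sesn1 and Trp53inp1 stay far from 0.

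The N libraries themselves were spread unevenly in these genes. N sample 4 was the lowest N library in 28 of the 31 genes (90.3%), against 36.6% of all genes tested, and the exceptions were Ppm1d, Xpc and Sesn1. Its log2(TPM + 1) minus the mean of the other 3 N libraries had a median of -0.41 over the 31 genes, from -1.13 for Eda2r to 0.26 for Sesn1, beside -0.01 over all genes. The other N libraries, each set against the remaining 2 of samples 1 to 3, had medians of -0.02, -0.08 and 0.10. Under the other scalings and filters tried, the median for N sample 4 stayed between -0.46 and -0.38.

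The low values of N sample 4 reached across roles. Btg2 had 23.6, 22.8 and 25.1 TPM in N samples 1 to 3 and 10.6 TPM in N sample 4. Eda2r had 25.1, 22.8 and 27.4 TPM against 10.9 TPM, and Polk had 17.7, 18.8 and 19.9 TPM against 9.52 TPM. The median difference was -0.54 for p53 and its negative regulators, -0.57 for apoptosis, -0.55 for growth arrest and stress kinases, -0.18 for DNA repair and nucleotide supply, and -0.24 for metabolism and redox. The SD of log2(TPM + 1) over the 4 N libraries had a median of 0.23 over the 31 genes and 0.16 over all genes, and without N sample 4 it was 0.10 in both. The number of genes detected, the mitochondrial share (17.6%) and the epithelial marker sum of N sample 4 lay within the ranges of the other libraries, and its Cd68-led immune sum lay above the other N libraries. The part of any of these in the low values was not tested.

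**Figure D4:**
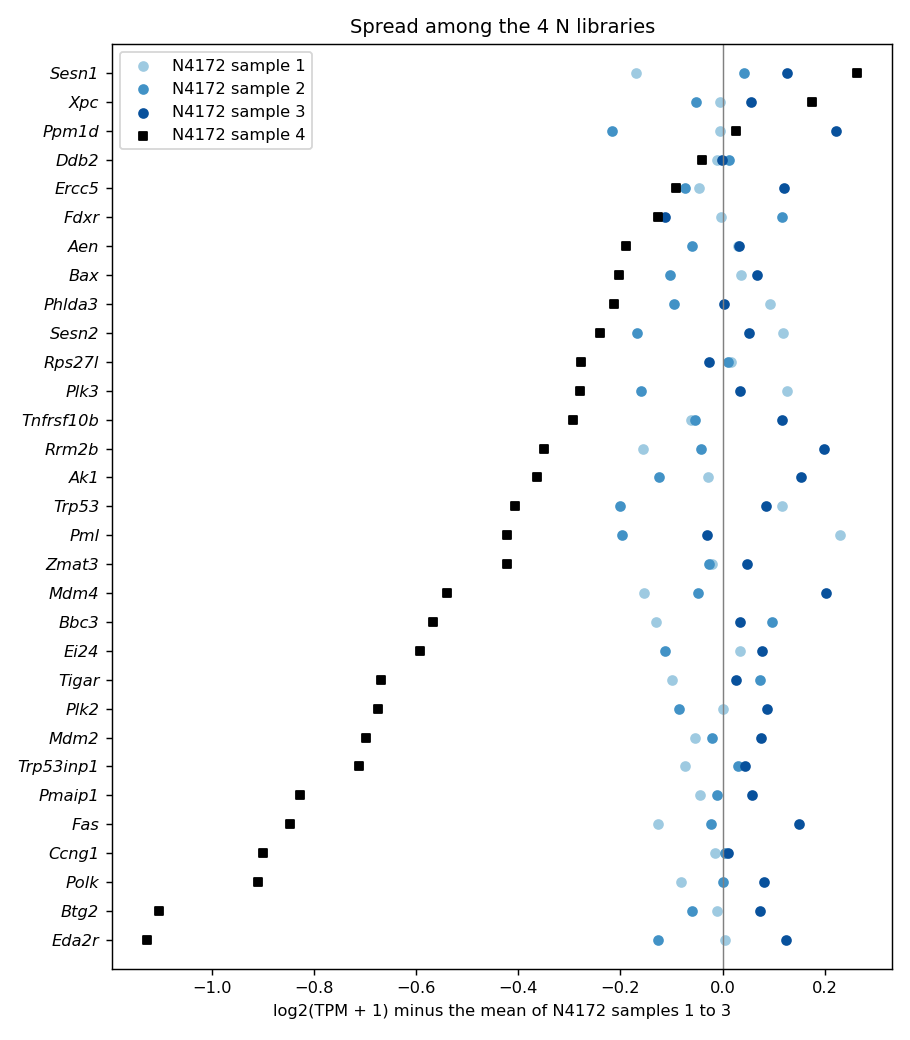
Spread of the 31 genes among the 4 N libraries, as log2(TPM + 1) minus the mean of N4172 samples 1 to 3. Circles are samples 1 to 3 and black squares are sample 4, which lies to the left of the others in 28 genes, down to -1.13 for Eda2r.

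Because N sample 4 was the lowest N library in most of these genes, leaving it out lowers their EY minus N values by construction, and the values without it are a description. Then 10 genes were higher and 21 lower, and the median log2 fold change was -0.10, beside 0.03 over all genes. Aen was called higher (against 2.01% of all genes) and Trp53inp1 and Sesn1 lower (against 1.31%). By adjusted p alone, Aen and Plk3 passed in the higher direction (against 7.52%) and Ei24, Trp53inp1 and Sesn1 in the lower (against 4.64%). All EY libraries lay below N samples 1 to 3 in 7 genes (Mdm2, Mdm4, Ccng1, Ei24, Trp53inp1, Ercc5 and Sesn1), 22.6% against 14.1% of all genes, and above them in 4 genes (12.9% against 16.4%).

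Genes around p53 were described from lists of regulators, family members and other targets. Of 22 regulators of p53 none was called, though 3 had an adjusted p below 0.01 (13.6%, against 11.8% of all genes). Cdkn2a, whose row covers both the p16 and p19 transcripts, had 12.7 to 15.6 TPM in the N libraries. It had 32.9 and 32.7 TPM in EY3960, 27.4 and 28.8 TPM in EY4028, and 23.5 and 31.2 TPM in EY4174. The groups did not overlap, and the log2 fold change was 0.95 ± 0.11 (SE; limma adjusted p = 9.92e-05), which passed the fold threshold, at 1.01, when EY4174 sample 1 was left out. The damage kinase genes Atm and Chek2 had -0.79 and -0.55 (limma adjusted p = 0.00305 and 0.00244), and were named after their values were seen. Ube3a, which encodes the E6 partner, had -0.19 ± 0.13 (SE; limma adjusted p = 0.337), with 17.6 to 28.5 TPM in EY and 23.0 to 29.4 TPM in N.

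Of the p53 family, Trp63, the master regulator of stratified epithelium, had 46.0 to 60.5 TPM in EY and 70.8 to 99.9 TPM in N. Its log2 fold change was -0.58 ± 0.11 (SE; limma adjusted p = 0.00262), and N sample 4 was here the highest library. Trp73 did not pass the filter and was not tested. It had 0 to 0.07 TPM in EY and 0.11 to 0.30 TPM in N, without overlap but at very low values.

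Of 33 genes listed as other p53 targets, Thbs1, a secreted matrix glycoprotein, was called higher and Fbxw7, a substrate receptor of a ubiquitin ligase, was called lower (1 of 33 in each direction, 3.03%, against 1.85% and 1.7% of all genes). With line as a random block neither was called (limma adjusted p = 0.0690 for Thbs1 and 0.0245 for Fbxw7), and with the sample number as a block Thbs1 was not (0.0318). Thbs1 had 6.73 to 15.7 TPM in EY and 3.34 to 6.05 TPM in N (log2 fold change 1.10 ± 0.23 SE, limma adjusted p = 0.00477), and was not called without EY4028 sample 1 (0.98) or without N sample 1, 2 or 3 (limma adjusted p = 0.0195 to 0.0212). Fbxw7 had 2.33 to 3.50 TPM in EY and 5.05 to 8.38 TPM in N (log2 fold change -1.01 ± 0.14 SE, limma adjusted p = 0.000348), and was between -0.99 and -0.92 without EY3960 sample 1 or 2 or N sample 2 or 3. Wrap53 and Epha2 also passed by adjusted p alone in the higher direction and Serpinb5 in the lower, 3 genes named after their values were seen. With these, 15.2% of the 33 genes passed by adjusted p alone, against 11.8% of all genes. Cdkn1a, which encodes the cell cycle inhibitor p21, had 104.3 to 125.2 TPM in EY and 91.5 to 103.9 TPM in N samples 1 to 3, with 46.2 TPM in N sample 4. The groups did not overlap, but EY4174 sample 1 (104.3 TPM) and N sample 1 (103.9 TPM) were nearly equal. Its log2 fold change was 0.48 ± 0.20 (SE; limma adjusted p = 0.0952), and 0.21 without N sample 4 (limma adjusted p = 0.0651). The median log2 fold change was -0.03 over the 33 targets and -0.05 over the 22 regulators. N sample 4 was the lowest N library in 15 of the 33 targets and 13 of the 22 regulators, with median differences of -0.08 and -0.16.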

How the data were processed

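Poly(A) RNA libraries of 10 samples from 4 lines of tongue epithelial primary culture were sequenced as read pairs. The authors deposited 1 table of TPM values per gene symbol and library. Their notes name STAR 2.7.9, SAMtools 1.7, HTSeq 0.13.5, DESeq2 1.34.0 and GRCm39, and which pipeline made the TPM is not given in the sources used here. TPM keeps no read depth, so no counting intervals were given. Here log2(TPM + 1) was fitted with limma 3.58.1 in R 4.3.3 (trend and robust moderation) on genes at 1 TPM or more in at least 4 libraries, as EY against N and as 4 line means. Called genes had an adjusted p below 0.01 and a log2 fold change beyond 1. The study used a count model at these thresholds, which TPM does not allow. Values per library were given for genes at adjusted p below 0.01 or called in a line, and for Trp53, Mdm2 and Mdm4, while Plk2 and the N sample 4 examples were chosen after their values were seen. The members and lists were chosen with earlier results of these data known. The scripts were tested on simulated data. The alternatives were a pseudocount of 0.1, other filters and scalings, the sample number or line as a block, line means, and leaving out each library or line.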

Additional observations from a re-analysis of the deposited data

Results flagged for a closer look

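In each gene the 6 EY and the 4 N libraries were examined for a single library far from the others of its group, by Dixon's criterion on TPM. Of 64 groups examined 5 were marked, where chance alone marks about 1 in 20, or 3.2, if the libraries of a group are independent. The EY libraries come in pairs from the same line, and all genes share the same libraries, so 3.2 is only a rough guide. In 4 of the 5 the library was N sample 4, as the lowest of its group. They were Ccng1 at 314 TPM, Pmaip1 at 36.2 TPM, Btg2 at 10.6 TPM and Rps27l at 857 TPM. The fifth was Xpc in EY3960 sample 1, at 3.29 TPM, the lowest of the EY libraries.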

How the results depend on the processing

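The count of called genes among the 31 was 4 and moved to 1 under a replicate block on the sample number, 1 with line as a random block, 0 with the mean of each line and 2 without EY3960. By adjusted p alone it moved from 4 to 1, 1 and 0 under the first 3 of these. Over all genes the 413 calls moved to 216 with 1 TPM in every library, 221 with the replicate block, 203 with line as a random block and 2 with line means. Sample numbers shared only a number: the difference between samples 1 and 2 correlated between lines at -0.15 to 0.05. Numbers 3 and 4 occurred only in N. The replicate block therefore fitted those libraries exactly and in effect compared EY with N samples 1 and 2 alone. Aen was the gene that was still called in both block fits. With line means its limma adjusted p was 0.0959. With the replicate block and with line as a random block the limma adjusted p was 0.0133 and 0.0264 for Trp53inp1, 0.0375 and 0.0186 for Sesn1, and 0.0286 and 0.0236 for Plk3. Plk3 ranged from 0.94 to 1.10 (log2) when single libraries were left out. The count without overlap ranged from 7 to 11, the latter without N sample 4. Signs turned in genes far from the thresholds. With the replicate block, Ppm1d had 0.0464, Pmaip1 -0.0674, Btg2 -0.113, Xpc 0.00924 and Polk -0.0986. Without EY3960, Pmaip1 had -0.0363, Pml 0.0187, Btg2 -0.0488, Xpc 0.00716 and Polk -0.0709. Phlda3 had 0.0292 without EY4028, and Ccng1 0.0274 without EY4174. With single libraries left out, Ppm1d ranged from -0.15 to 0.000537, Bbc3 from -0.00182 to 0.22, Pmaip1 from -0.10 to 0.20, Phlda3 from -0.10 to 0.00692, Pml from -0.20 to 0.0122, Btg2 from -0.15 to 0.24, Zmat3 from -0.000708 to 0.17, Polk from -0.14 to 0.23 and Tigar from -0.24 to 0.0114. Apart from the N samples that the replicate block takes out of the comparison, the cause was not tested.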
